A study of Mus musculus with 4 samples.

Results

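The genes described here are 36 genes of the cell cycle and of DNA replication, 15 that act in S phase and 21 that act in mitosis, out of 23366 gene symbols in the table of read counts. They were taken by name, and the rule used no measured value. RNA was measured in medullary thymic epithelial cells (mTECs), the cells of the thymus medulla that display self antigens to developing T cells, sorted from wild-type C57BL/6 mice aged 6 to 8 weeks. Live cells (PI-) that were CD45-, MHCII+ and Ly51low were pooled from 10 mice for each sample, and the design held 2 pools from females and 2 pools from males, numbered 1 and 2 within each sex. The mice carried no transgene and received no treatment that the labels name, and the study compared the sexes.

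A dividing cell copies its DNA in S phase and parts the copies in mitosis. Licensing factors load the Mcm2 to Mcm7 helicase at replication origins, cyclin-dependent kinases fire those origins, and ribonucleotide reductase and the thymidylate enzymes supply the nucleotides. Mitotic kinases, kinetochore proteins and spindle motors then align the chromosomes, and the anaphase-promoting complex ends mitosis by marking cyclins for destruction. The transcripts of both phases are made in waves in cycling cells, through E2F factors for S phase genes and through the CHR element for mitotic genes, and are low in resting cells. In the thymus medulla, dividing cells are known among mTECs as well as among the lymphoid and myeloid cells around them.

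Reads counted on genes numbered 1976272 to 7103627 per pool, and 10865 genes passed the filter on low counts. All 36 members passed it, with 6 counts of Ccne2 in female pool 2 the fewest of any member in any pool. The labelled epithelial identity was present at a modest level. Epcam stood at 36.8 to 51.3 normalized CPM (library-scaled counts after TMM correction for composition) and Aire at 19.2 to 31.5. Ccl21a had no count in any pool. Reads that did not align uniquely made up 27.3% to 33.2% of a pool and are not among the gene counts. Whether Ccl21a lost reads in this way was not tested, so its lack of counts is not evidence on identity. Markers of other cells were abundant although the sort removed CD45+ cells. The 7 of 8 B cell markers found in the table summed to 2376 to 4299 normalized CPM, 10 markers of dendritic cells and macrophages to 1885 to 5163, and 12 thymocyte markers to 433 to 1365, against 374 to 647 for 9 epithelial markers. Erythroid (1.62 to 3.09), endothelial (25.7 to 37.4) and fibroblast (12.7 to 78.9) markers were low, with the same limit for those without counts. The values below are therefore those of the sorted pools as a whole, and in pooled cells a smaller number of dividing cells and less RNA per cell cannot be told apart.

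Promoters of the members were read from RefSeq (GRCm38.p6) as windows of 300 bases, from 250 before to 50 after the start of the gene. Of the 36 members, 29 had a window. Shown here are 3 helicase genes, whose levels had the same order across the pools, and 3 mitotic genes, among them Cenpf, which departed from the other mitotic members. Capitals mark the letters CCAAT (bound by NF-Y), TTTGAA or TTTAAA (forms of the CHR element), and TTTCCCGC, TTTCGCGC, TTTGCCGC or TTTGGCGC (forms of the E2F element) on either strand, with reverse-strand matches shown as their reverse complement. TTTAAA is its own reverse complement, and E2F forms can overlap each other or a CCAAT.
Mcm3 (chr1:20820263-20820562, minus strand): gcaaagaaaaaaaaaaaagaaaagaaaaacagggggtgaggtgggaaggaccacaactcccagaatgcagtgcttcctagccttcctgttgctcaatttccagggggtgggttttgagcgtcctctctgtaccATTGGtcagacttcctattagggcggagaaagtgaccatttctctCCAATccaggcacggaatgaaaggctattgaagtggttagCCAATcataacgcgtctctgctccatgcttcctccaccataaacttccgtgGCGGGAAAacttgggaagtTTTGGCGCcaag
Mcm5 (chr8:75109259-75109558, plus strand): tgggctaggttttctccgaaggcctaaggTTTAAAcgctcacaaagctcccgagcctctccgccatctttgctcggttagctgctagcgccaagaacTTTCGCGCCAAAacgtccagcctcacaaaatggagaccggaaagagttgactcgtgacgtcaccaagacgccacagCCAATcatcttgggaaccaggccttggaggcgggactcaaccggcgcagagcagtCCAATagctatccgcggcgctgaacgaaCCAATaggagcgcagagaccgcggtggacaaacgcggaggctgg
Mcm6 (chr1:128359656-128359955, minus strand): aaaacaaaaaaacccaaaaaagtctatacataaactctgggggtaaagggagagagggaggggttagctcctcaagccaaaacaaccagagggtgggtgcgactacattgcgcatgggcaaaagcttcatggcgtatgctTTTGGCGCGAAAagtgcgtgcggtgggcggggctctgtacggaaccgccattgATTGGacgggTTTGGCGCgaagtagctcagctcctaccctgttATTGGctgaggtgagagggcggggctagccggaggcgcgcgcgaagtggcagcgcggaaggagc
Cdk1 (chr10:69352863-69353162, minus strand): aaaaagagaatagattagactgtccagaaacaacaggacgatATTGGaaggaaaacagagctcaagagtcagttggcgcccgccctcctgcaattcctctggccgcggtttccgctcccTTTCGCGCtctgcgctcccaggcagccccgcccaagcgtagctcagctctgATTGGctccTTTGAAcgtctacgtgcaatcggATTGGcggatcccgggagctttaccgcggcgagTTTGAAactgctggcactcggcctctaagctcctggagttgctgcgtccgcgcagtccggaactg
Ccnb2 (chr9:70421505-70421804, minus strand): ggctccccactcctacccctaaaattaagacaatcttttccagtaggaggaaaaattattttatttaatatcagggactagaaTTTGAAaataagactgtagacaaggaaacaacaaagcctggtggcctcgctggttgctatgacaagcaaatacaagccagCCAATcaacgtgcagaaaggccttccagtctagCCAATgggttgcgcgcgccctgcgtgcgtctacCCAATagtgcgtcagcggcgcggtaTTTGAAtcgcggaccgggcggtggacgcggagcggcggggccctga
Cenpf (chr1:189688037-189688336, minus strand): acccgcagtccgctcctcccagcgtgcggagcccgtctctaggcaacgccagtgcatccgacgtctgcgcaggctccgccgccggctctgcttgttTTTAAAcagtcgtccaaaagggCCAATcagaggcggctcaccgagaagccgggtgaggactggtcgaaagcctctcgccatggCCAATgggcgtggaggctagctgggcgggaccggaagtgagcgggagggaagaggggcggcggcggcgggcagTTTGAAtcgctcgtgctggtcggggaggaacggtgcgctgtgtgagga

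The 3 helicase promoters hold E2F forms and the Ccnb2 and Cenpf promoters do not. Over all members with a window, an E2F form was found in 5 of 12 S phase promoters (41.7%) and in 1 of 17 mitotic promoters (5.88%), that of Cdk1. Of 27025 promoters in the table, 2.32% held an E2F form, and 4.34% of the 8171 promoters of tested genes did. CCAAT and the CHR forms were each found in 15 of 17 mitotic promoters (88.2%), against 37.9% and 27.8% of all promoters and 38.9% and 18.7% of those of tested genes. Of the 5 helicase genes with a window, all 5 held CCAAT, 4 held an E2F form and 2 held a CHR form. A match of letters is a description of the window and not a measured binding site.

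The level of the members ranged widely, and S phase genes were the more abundant. Per length of transcript, as RPKM (CPM per kilobase of exon), Pcna, the sliding clamp of DNA polymerase, had the highest mean over the pools at 104, which placed it at percentile 93.2 of the tested genes. The helicase genes had means from 15 (Mcm4) to 32.9 (Mcm3). Ccnb2 (21.8), Rrm2 (21.7), Cenpa (18.7) and Ube2c (16.7) lay within that range. The lowest were the kinetochore motor Cenpe at 1.09 and the checkpoint kinase Bub1 at 1.45, at percentiles 10.6 and 15.5.

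**Figure D1:**
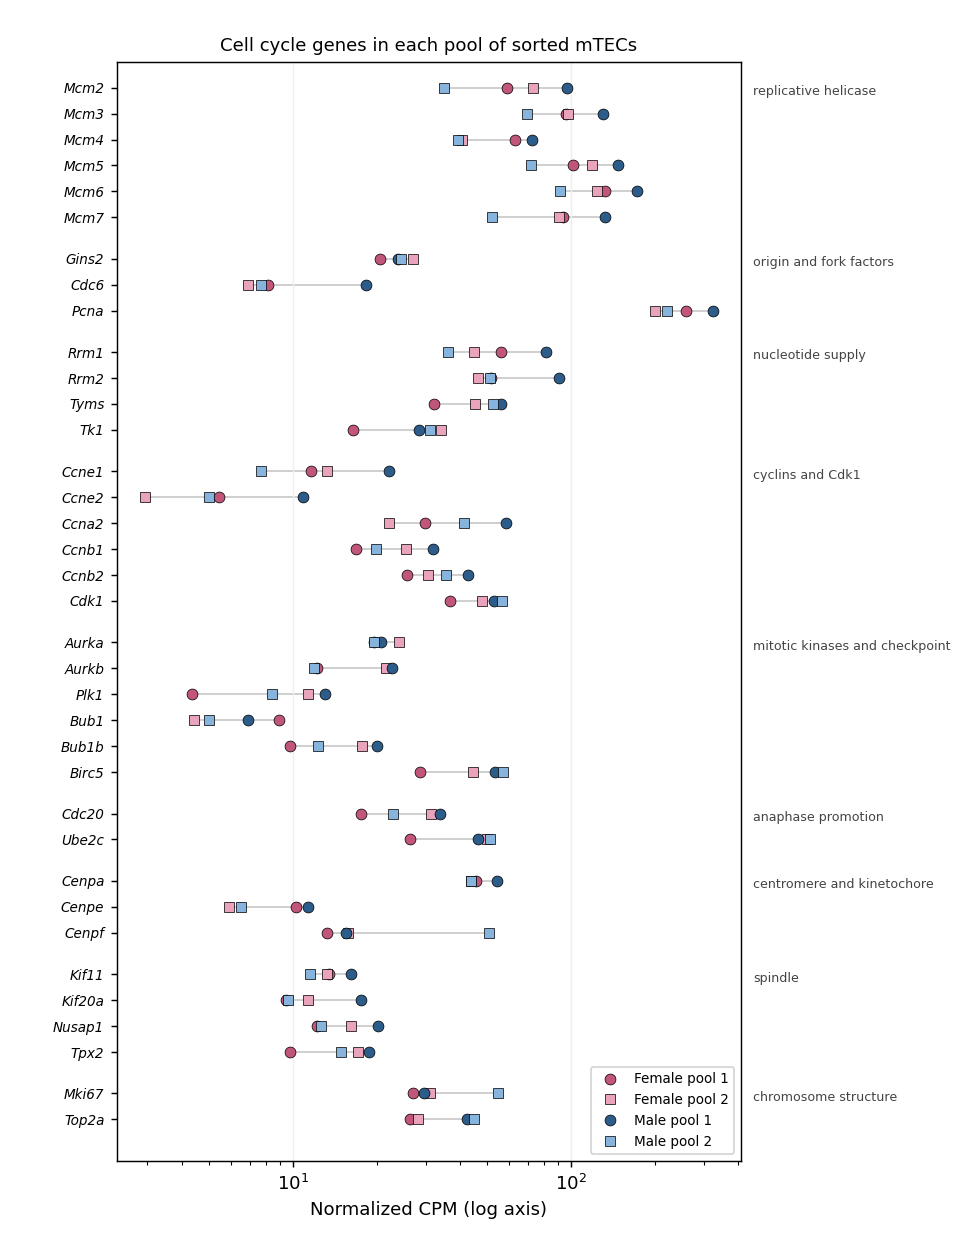
Normalized CPM (log axis) of each of the 36 members, grouped by role, with 1 point for each pool; circles are pools numbered 1 and squares are pools numbered 2. Mcm2 to Mcm7 lie highest in male pool 1 and lowest in male pool 2, whereas Cenpf lies at 50.6 in male pool 2 and at 13.3 to 15.8 in the other pools.

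The genes of the replicative helicase shared an order of the pools. Mcm2 to Mcm7 form the ring that unwinds DNA at the fork. Mcm5 (chr8:77633427-77652338, plus strand, mm9) was measured at 102 and 119 normalized CPM in female pools 1 and 2, and at 147 and 71.6 in male pools 1 and 2. Mcm2 was measured at 58.7 and 72.9 in female pools and at 96.5 and 34.9 in the male pools. Mcm7 was measured at 93.7 and 90.6 in female pools and at 133 and 52.1 in the male pools. All 6 genes were highest in male pool 1 and lowest in male pool 2, so that the female pools lay between the male pools. Mcm3 ran from 69.3 to 130, Mcm4 from 39.1 to 72.7 and Mcm6 from 91.2 to 173. Their sum was 547 and 544 in the female pools, 752 in male pool 1 and 358 in male pool 2. Among all 10865 tested genes, 1616 (14.9%) had this order of the pools, and over all members 11 of 36 had it. The other 5 were Rrm1, Ccne1, Aurkb, Kif11 and Cenpa, all counted after the values were seen. With no composition factor the order held for 6 of 6 helicase genes, for 21 of 36 members and for 37.1% of all tested genes.

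On TMM-scaled values, origin and fork factors were not lowest in male pool 2 as the helicase genes were. Without a composition factor Cdc6, Pcna and Gins2 were all lowest in male pool 2. Cdc6, which helps to load the helicase, was measured at 8.12 and 6.89 normalized CPM in female pools and at 18.4 and 7.66 in the male pools. Male pool 1 stood apart and the other 3 pools were close together. Pcna was measured at 259 and 200 in female pools and at 323 and 221 in the male pools, which overlap. Gins2, a subunit of the GINS complex that travels with the helicase, varied little, from 20.6 to 27.1. Its exons overlap those of Gse1 on the other strand over 2758 of 4097 bases, and which strand setting was used in counting is not given in the sources used here.

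Genes of nucleotide supply were split. The subunits of ribonucleotide reductase were highest in male pool 1, Rrm1 at 81.1 with 55.8 as the next highest value and Rrm2 at 90.9 against 46.3 to 51.7. Thymidylate synthase (Tyms) was measured at 32.2 and 45.3 in female pools and at 56.1 and 52.5 in the male pools. On these TMM-scaled values the groups did not overlap, but they did without a composition factor. With TMM scaling, 9.41% of all tested genes had both male pools above both female pools. Thymidine kinase (Tk1) was lowest in female pool 1 at 16.5, with 28.3 to 34.0 in the other pools.

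Cyclins and their kinase came next. Ccna2, the cyclin of S phase and early mitosis (chr3:36463788-36471072, minus strand, mm9), was measured at 29.8 and 22.2 normalized CPM in female pools and at 58.2 and 41.4 in the male pools. Both male pools lay above both female pools. Its exons share 512 bases with Exosc9 on the other strand. Ccnb2, a mitotic cyclin, was measured at 25.7 and 30.5 in females and at 42.8 and 35.6 in males, and Cdk1, the kinase that drives entry into mitosis, at 36.8 and 47.8 in females and at 53.0 and 56.7 in males. Neither overlapped between the sexes on TMM-scaled values, but both did without a composition factor. Over all tested genes, 9.41% had both male pools above both female pools with TMM scaling. Ccnb1 did overlap with TMM scaling, with 16.8 and 25.6 in females and 31.9 and 19.9 in males. The cyclins of S phase entry were low and highest in male pool 1, Ccne1 at 22.1 against 7.66 to 13.3 in the other pools and Ccne2 at 10.9 against 2.95 to 5.41.

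Mitotic kinases and checkpoint genes were mostly lowest in female pool 1 on TMM-scaled values. Birc5, a subunit of the chromosomal passenger complex, was measured at 28.7 and 44.3 in females and at 53.4 and 57.1 in males, without overlap. The sexes did overlap for Birc5 without a composition factor. Plk1 was measured at 4.33 and 11.3 in females and at 13.1 and 8.43 in males, on 16 to 110 counts. Aurkb ranged from 11.9 to 22.7 and Aurka from 19.5 to 24.1. The checkpoint kinase Bub1b had 9.75 and 17.7 in females, 12.3 in male pool 2 and its highest value in male pool 1. Bub1 went the other way and was highest in female pool 1, at 8.93 against 4.43 to 6.89 in the other pools, but rested on 9 to 58 counts. The activator and the ubiquitin-conjugating enzyme of the anaphase-promoting complex were also lowest in female pool 1, Cdc20 at 17.6 against 23.0 to 33.8 and Ube2c at 26.3 against 46.4 to 51.3. Without a composition factor, male pool 2 was the lowest for Aurka, Aurkb, Bub1, Bub1b and Cdc20.

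Among centromere and kinetochore genes, Cenpf was unlike the other members. Cenpf (chr1:191464478-191511965, minus strand, mm9), a large kinetochore protein that accumulates late in the cycle, was measured at 13.3 and 15.8 normalized CPM in the female pools, at 15.5 in male pool 1 and at 50.6 in male pool 2. The 95% counting intervals were 9.81 to 17.5, 10.8 to 22.2, 12.9 to 18.3 and 42.3 to 60.0 in the same order, from 32 to 132 counts. Male pool 2 lay above the other pools and those overlapped. Mki67, a coat protein of mitotic chromosomes and the usual marker of proliferation, had a smaller excess in the same pool, with 27.1 and 31.0 in females and 29.7 and 54.8 in males. Top2a, the topoisomerase that untangles sister chromatids, was measured at 26.3 and 28.1 in females and at 42.2 and 44.8 in males, without overlap. The centromeric histone Cenpa was the steadiest member together with Aurka, at 43.7 to 54.3. Cenpe was lower in the pools numbered 2 (5.91 and 6.51) than in those numbered 1 (10.3 and 11.3). The spindle genes Kif11 (11.5 to 16.2), Kif20a (9.48 to 17.6), Nusap1 (12.2 to 20.3) and Tpx2 (9.75 to 18.8) were each highest in male pool 1.

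As a share of all counts on genes, the 36 members took 0.149% and 0.152% in female pools 1 and 2, against 0.241% and 0.108% in male pools 1 and 2. The Wilson 95% intervals reached at most from 0.145% to 0.157% for females, and were 0.237% to 0.245% and 0.105% to 0.112% for males. They cover counting error only. For the 36 members together, the female pools thus agreed within counting error and the male pools lay on either side of them. For mitotic members alone the intervals of the female pools did not overlap (0.0404% to 0.0447% and 0.0497% to 0.0561%). Mitotic members took 0.0425% and 0.0528% in females and 0.0744% and 0.0461% in males, so the raw share was lower in male pool 2 than in female pool 2. After TMM scaling their sum was 404 and 514 normalized CPM in females and 628 and 591 in males, and that order turned. The sum of S phase members (1008 and 965 in females, 1407 and 795 in males) kept its order on both scales.

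**Figure D2:**
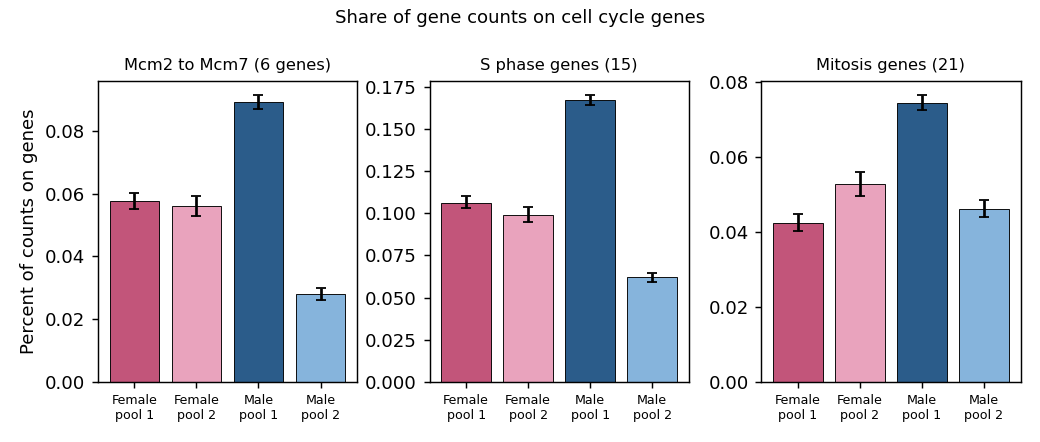
Percent of counts on genes (not TMM scaled) that fell on Mcm2 to Mcm7, on the 15 S phase members and on the 21 mitosis members in each pool; bars are single pools and error bars are Wilson 95% intervals for counting error. Male pool 1 is highest in each panel, and male pool 2 is lowest for Mcm2 to Mcm7 (0.028%) and for S phase genes (0.062%) but not for mitosis genes (0.0461%).

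Ratios of counts within a pool do not depend on scaling, and they showed that the balance of S phase to mitosis differed between pools. The S phase members had 2.5 times the counts of the mitotic members in female pool 1 (95% counting interval 2.35 to 2.65) and 1.88 times in the other female pool (1.74 to 2.02). In males the ratio was 2.24 for pool 1 (2.17 to 2.31) and 1.34 for pool 2 (1.26 to 1.44). The pools numbered 2 were below the pools numbered 1 in each sex, and male pool 2 was lowest. The helicase genes were low in male pool 2 also among S phase members, at 0.82 times the counts of the other 9 against 1.15 to 1.29 in the other pools. Cenpf had 0.0936 of the counts of the other mitotic members in male pool 2, and 0.0252 to 0.034 in the other pools. Mki67 had 0.153 of the helicase counts in that pool and 0.0395 to 0.057 in the others. With 2 pools a side, a single ratio cannot reach an exact two-sided p below 0.333, and none was tested.

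**Figure D3:**
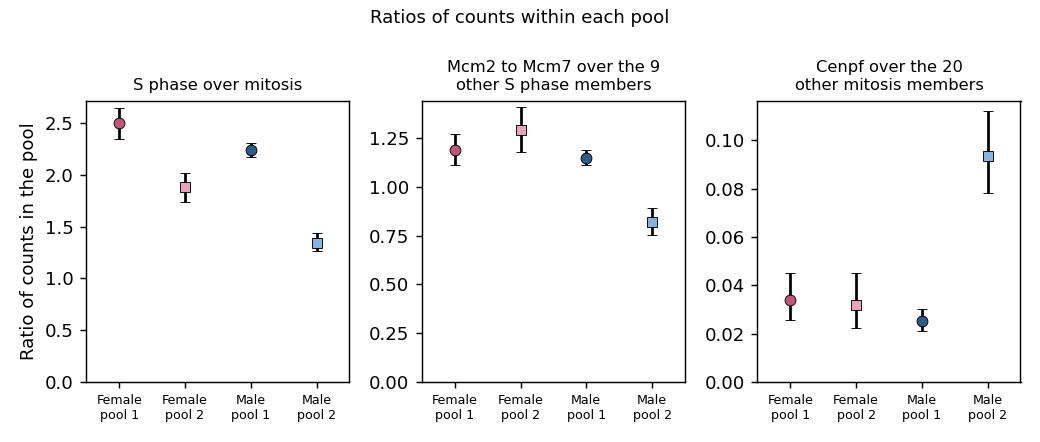
Ratios of summed counts within each pool for S phase over mitosis members, Mcm2 to Mcm7 over the other S phase members, and Cenpf over the other mitosis members; points are single pools and bars are 95% counting intervals. Male pool 2 is lowest in the first 2 panels (1.34 and 0.82) and highest in the third (0.0936).

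No member differed between males and females by edgeR's quasi-likelihood test (p-values adjusted over all tested genes after Benjamini and Hochberg). No gene at all did (0 of 10865, 0%), although the unadjusted p was below 0.05 for 48 genes (0.442%) and for 1 member, Ccna2. Log2 fold changes of tested genes ran from -5.32 to 10.52, so even changes of that size were not called. The study itself reported genes higher in males at a false discovery rate below 0.05, some of them on the Y chromosome. The lack of a call therefore says little about the members. DESeq2 called 3 genes and no member. For male over female, log2 fold changes were above 0 in 33 of 36 members, against 5781 of all tested genes (53.2%), and in 31 to 34 of 36 under the other scalings and filters. Their median was 0.26 against 0.027 for all tested genes, with 0.23 for S phase and 0.36 for mitotic members. Without male pool 1 the S phase and mitotic medians were -0.43 and -0.044. Both male pools lay above both female pools for 6 members (Tyms, Ccna2, Ccnb2, Cdk1, Birc5 and Top2a), against 1022 tested genes (9.41%). Without a composition factor they did for 4 (Ccna2, Cenpf, Mki67 and Top2a), against 6.11% of all tested genes. For 0 members both male pools lay below, against 1285 tested genes (11.8%).

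No single fold change passed the threshold. The largest were those of Cenpf, at 1.16 on the log2 scale (SE 0.58, adjusted p = 1), Ccna2, at 0.94 (SE 0.34, unadjusted p = 0.0309 in the edgeR fit, adjusted p = 1), and Ccne2, at 0.93 (SE 0.59). The lowest were those of Bub1, at -0.18 (SE 0.53), Aurka, at -0.11 (SE 0.33), and Mcm5, at -0.01 (SE 0.43). Female pools averaged 111 ± 11.9 normalized CPM of Mcm5 and male pools 110 ± 53.6 (SD, n = 2), near equal means with a wide spread between the male pools. On TMM-scaled values Top2a had tight pools of each sex, at 27.2 ± 1.28 (females) and 43.5 ± 1.86 (males), and its log2 fold change was 0.68 (SE 0.30). Birc5, Tyms and Cdk1 also had a narrow spread in males, at 55.2 ± 2.63, 54.3 ± 2.55 and 54.9 ± 2.61, against 36.5 ± 11.0, 38.8 ± 9.25 and 42.3 ± 7.74 in females. Without a composition factor the male pools lay further apart for Top2a, Birc5, Tyms and Cdk1, each then highest in male pool 1. The log2 fold change was 0.53 for Mki67 (SE 0.39), 0.49 for Tyms (SE 0.32), 0.38 for Cdk1 (SE 0.31), 0.32 for Ccnb1 (SE 0.39), 0.54 for Rrm2 (SE 0.38) and 0.25 for Pcna (SE 0.40). Without male pool 1, Rrm2 gave 0.052 and Ccne2 gave 0.17. Without male pool 2, Mki67 gave 0.048. Leaving out a single pool kept Top2a between 0.63 and 0.75 and Ccna2 between 0.64 and 1.17.

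The direction depended on which pools were compared. Between the pools numbered 1, the male value was above the female value for 35 of 36 members, Bub1 being the exception, with a median log2 ratio of 0.73. Between the pools numbered 2 it was above for 15 of 36, with a median of -0.14. With no composition factor these counts were 35 and 5 of 36. The sum of the helicase genes was higher in males by 0.46 on the log2 scale between the pools numbered 1 and the same ratio was -0.60 between the pools numbered 2. On TMM-scaled values Ccna2 and Top2a moved little between these comparisons, with 0.97 and 0.90 for Ccna2 and 0.68 and 0.68 for Top2a. Cenpf gave 0.22 and 1.68. Without male pool 1 the fitted median over members was -0.07, with 16 of 36 above 0, and Cenpf then passed the threshold (log2 fold change 1.80, adjusted p = 0.000737). That fit has a single male pool, which was taken to vary like the others, and called 646 genes. Without male pool 2 the median was 0.515, and Cenpf gave 0.11.

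**Figure D4:**
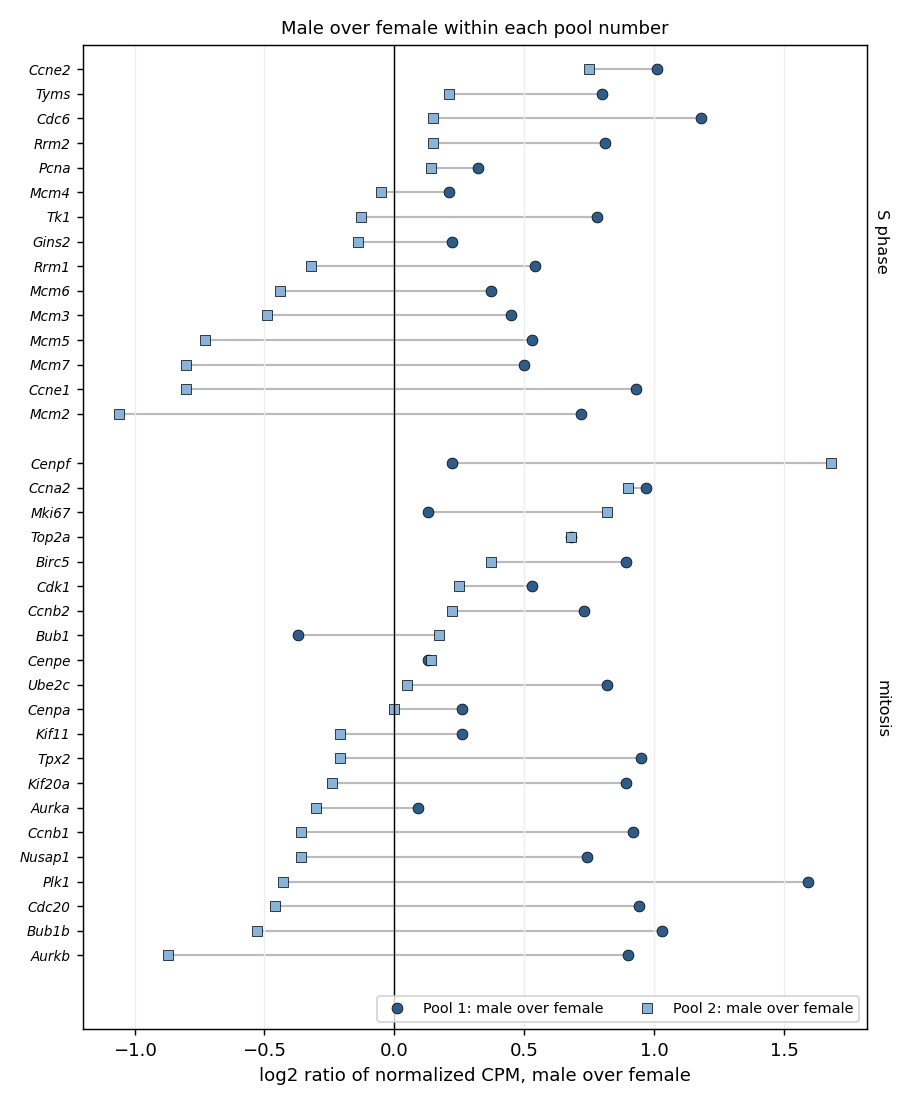
Log2 ratio of normalized CPM, male over female, for each member within the pools numbered 1 (circles) and within the pools numbered 2 (squares), ordered by the latter within S phase and mitosis; each point is a ratio of 2 single pools with no error. Circles lie above 0 for 35 of 36 members and squares for 15 of 36, with Mcm2 (0.72 and -1.06) and Cenpf (0.22 and 1.68) at the ends.

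More genes passed the test by pool number than by sex, but the labels do not say what a pool number stands for. No member passed the adjusted threshold for pool 2 over pool 1, where 221 of 10865 genes did (2.03%). The unadjusted p in the edgeR fit was below 0.05 for Mcm4, Rrm1 and Cenpf, against 2571 tested genes (23.7%), so 3 of 36 was below the background. Log2 fold changes were below 0 for 23 of 36 members, against 5660 of all tested genes (52.1%). With library size only, where the median of all genes shifted from -0.030 to -0.351, 4 of 36 were above 0. The median was -0.20 over all members, -0.55 over S phase members and -0.043 over mitotic members. Both pools numbered 2 lay below both pools numbered 1 for 12 members, 8 of them of S phase, against 3152 tested genes (29%), and above for 5 members, against 2878 (26.5%).

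The largest log2 fold changes by pool number were those of Cenpf, at 1.22 (SE 0.45, adjusted p = 0.149 in edgeR), Mki67, at 0.60 (SE 0.30), and Tk1, at 0.51 (SE 0.30). The lowest were those of Ccne2, at -1.06 (SE 0.50), Cdc6, at -0.91 (SE 0.45), and Cenpe, at -0.80 (SE 0.35). Mcm4 gave -0.77 (SE 0.23) and Rrm1 gave -0.77 (SE 0.27), with edgeR adjusted p = 0.0987 and 0.137. Of the remaining genes, Mcm5 gave -0.40, Pcna -0.47, Rrm2 -0.55, Tyms 0.13, Cdk1 0.21, Ccnb1 -0.13 and Top2a 0.08, with SE from 0.26 to 0.34. Single pools moved several of these values. Without male pool 2, Cenpf gave 0.11 and Mki67 gave 0.12. Without male pool 1, Ccne2 gave -0.43, Cdc6 -0.17, Rrm2 -0.094 and Mcm5 -0.11, and Tk1 gave 0.96. Without female pool 1, Tk1 gave 0.19. Without female pool 2, male pool 2 is the only pool numbered 2 and was taken to vary like the others. That fit called 2620 genes and 8 members, with Mcm2, Mcm4, Mcm5, Mcm6, Mcm7 and Rrm1 lower and Cenpf and Mki67 higher in male pool 2.

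Across the pools, 26 of 36 members were highest in male pool 1, against 2822 of all tested genes (26%), and 11 were lowest in male pool 2, against 3872 (35.6%). Without a composition factor these were 31 of 36 (47.2% of all genes) and 23 of 36 (60.7% of all genes). With TMM scaling, Cdk1, Birc5, Ube2c, Cenpf, Mki67 and Top2a were highest in male pool 2, Gins2, Tk1 and Aurka in female pool 2, and Bub1 in female pool 1. Of these, Cdk1, Birc5, Ube2c, Top2a and Gins2 were highest in male pool 1 without a composition factor. After TMM scaling, female pool 1 was the lowest pool for 18 members, 15 of them mitotic, against 1947 of all tested genes (17.9%). Without a composition factor 11 of 21 mitotic members were lowest in male pool 2.

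Most thymocyte markers moved with the members in male pool 1. The sum of all thymocyte markers was 538 and 433 normalized CPM in the female pools, 1365 in male pool 1 and 488 in male pool 2. Of the 10 tested, 7 were highest in male pool 1, against 26% of all tested genes. Cd4, Cd8a and Ptcra were highest in male pool 2, at 79.3, 152 and 13.0 against 47.9, 143 and 7.25 in male pool 1. All 10 had a male over female log2 value above 0 (median 1.08), against 53.2% of all tested genes, with 0 called. Cd3e was measured at 89.5 in male pool 1 and at 7.28 to 17.1 in the others, Dntt at 128 and at 6.89 to 31.1. Rag1 and Rag2, which mark early thymocytes, were low and also peaked in male pool 1, with 35 and 42 counts there (4.16 and 4.99 normalized CPM) against 0 to 4 counts in the other pools. B cell markers were highest in female pool 1 (4299, against 2824 in the other female pool and 3523 and 2376 in males). Markers of dendritic cells and macrophages were highest in male pool 2 (5163, with 2464 and 4268 in the female pools and 1885 in male pool 1). Without a composition factor their sum was highest in female pool 2. The epithelial sum was 374, 647, 416 and 615 in the order female pools 1 and 2, male pools 1 and 2. The part of these cells in the levels of the members was not tested.

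Of 26 further S phase genes, all tested, 0 were called in either comparison, 21 were above 0 for male over female (median log2 fold change 0.33), 11 had both male pools above both female pools (9.41% of all tested genes did), and 19 were highest in male pool 1 (26% of all tested genes). The most abundant were Slbp, which binds histone mRNA, at 128 and 91.6 in females and 176 and 86.2 in males, Pold1, a DNA polymerase subunit (60.1 and 81.7, 55.6 and 104), and Dut, which removes dUTP (68.0 and 48.7, 90.7 and 86.2). Pold1 was thus highest in male pool 2 after TMM scaling, and in female pool 2 without a composition factor, unlike the helicase genes. Among S phase members, 1 of 15 had both male pools above. Without a composition factor the 11 became 2, against 6.11% of all tested genes.

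Of 41 further mitotic genes, 39 were tested and 0 were called in either comparison. Male over female was above 0 for 33 (median 0.38), and 27 were highest in male pool 1, against 26% of all tested genes. Both male pools lay above both female pools for 11, against 9.41%, and for 2 without a composition factor, against 6.11%. Of the 3 most abundant, the Cdk-binding proteins Cks2 (120 and 79.3 in females, 94.0 and 190 in males) and Cks1b (75.0 and 93.6, 91.8 and 154) were highest in male pool 2, and the checkpoint protein Bub3 varied only from 106 to 130. With TMM scaling 10 of the 39 were highest in male pool 2, against 32.7% of all tested genes. Among them were Cenpk (19.5, against 4.75 to 10.3 in the other pools), Prc1 (49.0, against 18.9 to 22.2) and Pttg1 (151, against 66.6 to 90.1).

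Of the cell cycle lists, the regulators held the genes that passed the test, 1 higher and 1 lower by pool number, against 2.03% of all tested genes. Ccnd1, the cyclin that links growth signals to the cycle, was measured at 24.9 or less in the pools numbered 1 and at 49.7 (female) and 69.0 (male) in the pools numbered 2, and rose with pool number by 1.42 on the log2 scale (SE 0.27, edgeR adjusted p = 0.045). Cdk6, its kinase partner, was measured at 40.6 and 39.7 in the pools numbered 1 and at 10.8 and 10.7 in the pools numbered 2, a log2 fold change of -1.89 (SE 0.26, edgeR adjusted p = 0.0391). Cdk6 also passed the threshold under every scaling and filter run and with each pool left out in turn. Ccnd1 did not with library size only (1.08, adjusted p = 0.0636) or without male pool 1 (1.24, adjusted p = 0.208). Neither overlapped between pool numbers. Between the sexes the log2 fold changes were 0.24 for Ccnd1 and -0.02 for Cdk6. Of 19 regulators, all tested, 0 were called between males and females, and 14 were above 0 (median 0.078), against 53.2% of all tested genes. The order of the helicase genes, highest in male pool 1 and lowest in male pool 2, was found in 10, against 14.9% of all tested genes. Without a composition factor it was found in 14, against 37.1%. The most abundant were Ccnd2 (367 to 487), Cdk4 (110 to 201) and Ccnd3 (126 to 170).

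On TMM-scaled values, none of the 7 tested inhibitors of the cycle was highest in male pool 1, against 26% of all tested genes. Among them 3 were abundant, and the other tested inhibitors had means of 6.72 (Cdkn1c) to 17.8 (Cdkn1b). The mean over the pools was 886 normalized CPM for Btg1, 742 for Cdkn1a (p21) and 434 for Btg2. Cdkn1a was measured at 684 and 801 in females and at 504 and 981 in males, and was thus lowest in male pool 1 and highest in male pool 2. Btg2 was likewise highest in male pool 2 at 641, against 303 to 429, and Btg1 was highest in female pool 1 at 1154. Of 9 inhibitors, 7 were tested, 0 were called in either comparison and 0 were highest in male pool 1 after TMM scaling. Without a composition factor, Cdkn2c was highest in male pool 1 and Cdkn1a in female pool 2. Cdkn2a and Cdkn2d did not pass the filter.

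**Figure D5:**
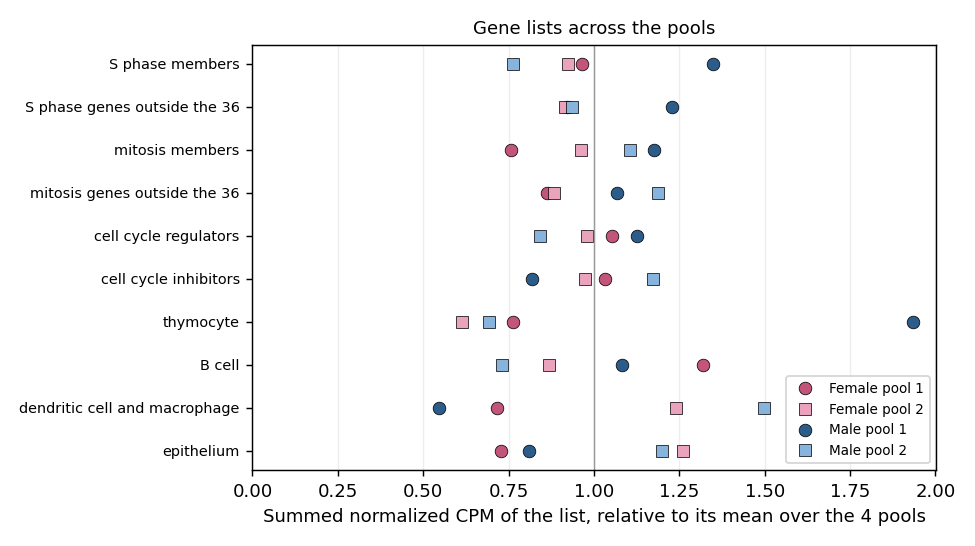
Summed normalized CPM of each gene list in each pool divided by the mean of that list over the 4 pools; circles are pools numbered 1 and squares are pools numbered 2. S phase lists and thymocyte markers stand highest in male pool 1 (1407 and 1365 normalized CPM). On this TMM scale, inhibitors and markers of dendritic cells and macrophages stand highest in male pool 2 (2470 and 5163). Without a composition factor the sum of inhibitors was lowest in male pool 2. That of dendritic cell and macrophage markers was then highest in female pool 2.

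Reads shared with close copies or overlapping genes limit some members. Pcna has the pseudogenes Pcna-ps1 and Pcna-ps2 and Ccnb2 has Ccnb2-ps in the annotation. Exons of Kif20a share 1259 bases with Cdc23, Ccne2 609 with Ints8 and Ube2c 592 with Tnnc2, each on the other strand, and Mcm7 shares 557 with 4 genes. Mcm2 to Mcm6, Cenpf, Mki67, Rrm1 and Rrm2 overlap no other gene there.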

How the data were processed

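RNA from sorted mTECs (SMARTer Ultra Low kit, polyA RNA) was sequenced in 4 pools. The authors removed low-quality reads with Trimmomatic, aligned them to mm9 by TopHat2, ran HTSeq on the alignments, and deposited raw counts per gene without normalization. Versions, annotation and strand setting are not given in the sources used here. Rows of unassigned reads (66.9% to 70.2% of a pool) were left out.

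Counts were tested with edgeR 4.0.16 (quasi-likelihood test, TMM, filterByExpr with a minimum count of 10, prior count 0.125, two-sided, Benjamini-Hochberg at 0.05 over all 10865 tested genes) in R 4.3.3, with sex or pool number as the only term. SE was taken as the log2 change over the root of the F statistic. The fit was tested on simulated data. TMM factors were 1.05 and 1.03 in females and 1.18 and 0.78 in males. No pair of pools agreed within sampling noise (lowest chi-square per degree of freedom 11). P-values measure the spread between these pools. RPKM used exonic lengths of the NCBIM37 (mm9) annotation. Tables and figures came from pandas 2.3.3 and matplotlib 3.10.9 (Python 3.11.15).

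Members and lists were chosen with earlier results of these data known. Fold changes are named for members past the threshold, the 3 largest and 3 smallest in each comparison, and 8 set members (Mki67, Top2a, Cdk1, Ccnb1, Mcm5, Pcna, Rrm2, Tyms), and for other lists the called genes and the 3 most abundant. Other genes and the order of the pools were chosen after their values were seen. Alternatives were upper-quartile factors, library size only, other filters, DESeq2 1.42.0, a prior count of 2, a replicate block and each pool left out. Ighm was not analysed here, and Adgre1 was found under its older symbol Emr1.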

Additional observations from a re-analysis of the deposited data

Results flagged for a closer look

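From pool 1 to pool 2, the sums over mitotic members and over all members had opposite signs in the sexes. The sum over S phase members gave -0.06 in females and -0.82 in males on the log2 scale. The female S phase shares overlapped in their counting intervals (0.103% to 0.11% and 0.0948% to 0.104%). The sum of the 21 mitotic members was higher in pool 2 by 0.35 on the log2 scale in females, and the log2 ratio was -0.09 in males. The sum of all 36 members gave 0.07 in females and -0.55 in males. Each value is a ratio of 2 single pools, and the difference between the sexes was not tested. The raw shares of gene counts moved the same way, from 0.149% to 0.152% in females and from 0.241% to 0.108% in males for all members. The female shares overlapped in their counting intervals.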

How the results depend on the processing

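Between males and females, 0 members were called under upper-quartile factors, library size only, both other filters, DESeq2, a prior count of 2 and the replicate block, and 0 to 1 when a pool was left out (1, Cenpf, without male pool 1). The median log2 fold change of members was 0.25 to 0.28 under the settings that kept all pools without a block, and 0.31 with the replicate block, which called 17 genes and left 29 of 36 members above 0. It ranged from -0.07 to 0.55 when a pool was left out. The labels do not say whether same-numbered pools share a batch, so the block was not used in the main test. Female and male deviations by number correlated at 0.52 over genes, with 2 pairs. For pool 2 over pool 1, 0 members were called except with no filter (3) and when a pool was left out (0 to 8, the most without female pool 2), and over all genes 221 calls became 807 with sex as a further term, 764 with library size only, 651 with DESeq2 and 1504 with no filter. The median over members ranged from -0.48 to 0.13 when a pool was left out, the highest without male pool 1. On normalized CPM the share of counts on members became 0.141% and 0.148% in females and 0.204% and 0.139% in males. Members lowest in male pool 2 rose from 11 to 23, and members with the helicase order from 11 to 21, with library size only, an alternative chosen after seeing the data.

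Among the named genes, directions turned for fold changes that were between -0.18 and 0.32. Members not named turned as well, since those above 0 for male over female fell from 33 to 16 without male pool 1. For male over female, Mcm5 became 0.007 with library size only and 0.011 with no filter, and ran from -0.64 to 0.42 when a pool was left out. Leaving out a pool gave -0.55 to 0.44 for Bub1, -0.26 to 0.066 for Aurka, -0.074 to 0.65 for Ccnb1 and -0.066 to 0.50 for Pcna. For pool number, library size only gave -0.29 for Top2a, -0.13 for Cdk1 and -0.21 for Tyms. Leaving out a pool gave -0.32 to 0.47 for Top2a, -0.028 to 0.49 for Cdk1, -0.50 to 0.42 for Ccnb1 and -0.21 to 0.59 for Tyms. Fits without a pool rest on 3 pools. Otherwise the cause was not tested. The biological coefficient of variation was 0.349 by sex and 0.218 by pool number.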
